A study of Mus musculus with 24 samples.

Results

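The sarcomeric myosin heavy chains of mouse muscle cells were followed through all 24 RNA-seq libraries. They are the 8 genes Myh1, Myh2, Myh3, Myh4, Myh6, Myh7, Myh7b and Myh8, taken by gene name from a count table of 28109 genes, and all 8 had reads and passed the filter on low counts in every fit. The RNA came from C2C12 cells, a long-established mouse myoblast line of the C3H strain, and from primary myoblasts (PMs) of C57/B6 mice that were 3 to 4 weeks old. Both received either an siRNA to luciferase (siControl) or siRNAs to Tead1 and Tead4 together (siTead1/4). They were collected 24 hours later (day 0), or moved to medium with 2% horse serum and collected at day 3 and day 6. The 12 resulting groups held 2 biological replicates each. No library was free of transfection, and whether the PM replicates came from different animals is not given in the sources used here, so that p-values measure the spread between these samples. Every C2C12 library is of 1 cell line and the PMs differ from it in strain, so that cell type, strain and culture cannot be told apart.

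Myosin heavy chains are the motors of the thick filament, and a muscle cell sets its contraction speed largely through the isoform that it makes. Embryonic (Myh3) and perinatal (Myh8) isoforms come first in development and regeneration and give way to the adult fast isoforms of type IIA (Myh2), IIX (Myh1) and IIB (Myh4) fibres or to the slow isoform Myh7, which is also the beta isoform of the heart. Myh6 encodes the alpha isoform of the heart, and Myh7b a relative of Myh7 found in some specialised fibres. Tead transcription factors bind the MCAT element, which occurs in promoters of many muscle genes.

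In the mm9 build the developmental and fast genes form a cluster of 230335 bases on the plus strand of chromosome 11 (chr11:66891802-67122136). Its order is Myh3 (ENSMUSG00000020908, chr11:66891802-66915793), Myh2 (ENSMUSG00000033196, chr11:66984529-67011019), Myh1 (ENSMUSG00000056328, chr11:67013554-67038078), Myh4 (ENSMUSG00000057003, chr11:67051314-67073948) and Myh8 (ENSMUSG00000055775, chr11:67090626-67122136). Only 2534 bases separate the annotated ends of Myh2 and Myh1, 13235 bases lie between Myh1 and Myh4, and 16677 between Myh4 and Myh8. Myh6 (ENSMUSG00000040752, chr14:55560758-55585764) and Myh7 (ENSMUSG00000053093, chr14:55589525-55613471) are neighbours on the minus strand of chromosome 14 with 3760 bases between them. Myh7b (ENSMUSG00000074652, chr2:155436948-155460043) stands alone on the plus strand of chromosome 2.

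The promoters of the neighbouring genes Myh2, Myh1, Myh4 and Myh8 are shown because siTead1/4 moved these genes in opposite directions in PMs. Each runs from 250 bases before to 50 bases after a RefSeq start (GRCm38.p6, plus strand, 5′ to 3′), and capitals mark the core of the MCAT element, CATTCC on either strand.
Myh2, chr11:67170777-67171076: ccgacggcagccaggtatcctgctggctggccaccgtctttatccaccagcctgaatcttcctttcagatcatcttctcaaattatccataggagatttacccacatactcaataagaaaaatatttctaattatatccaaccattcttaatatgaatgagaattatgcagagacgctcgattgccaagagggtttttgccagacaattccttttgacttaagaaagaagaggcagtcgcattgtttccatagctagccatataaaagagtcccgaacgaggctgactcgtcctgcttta
Myh1, chr11:67199852-67200151: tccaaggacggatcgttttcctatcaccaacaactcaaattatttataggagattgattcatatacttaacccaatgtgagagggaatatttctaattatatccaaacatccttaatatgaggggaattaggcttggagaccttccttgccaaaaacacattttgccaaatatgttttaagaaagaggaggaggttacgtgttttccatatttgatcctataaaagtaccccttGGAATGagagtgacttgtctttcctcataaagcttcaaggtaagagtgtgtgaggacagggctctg
Myh4, chr11:67237562-67237861: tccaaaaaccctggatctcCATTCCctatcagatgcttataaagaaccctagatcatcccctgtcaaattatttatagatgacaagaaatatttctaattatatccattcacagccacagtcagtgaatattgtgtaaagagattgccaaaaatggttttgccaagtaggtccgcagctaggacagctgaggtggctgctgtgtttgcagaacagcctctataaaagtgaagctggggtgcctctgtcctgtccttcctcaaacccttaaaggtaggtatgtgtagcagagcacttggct
Myh8, chr11:67276874-67277173: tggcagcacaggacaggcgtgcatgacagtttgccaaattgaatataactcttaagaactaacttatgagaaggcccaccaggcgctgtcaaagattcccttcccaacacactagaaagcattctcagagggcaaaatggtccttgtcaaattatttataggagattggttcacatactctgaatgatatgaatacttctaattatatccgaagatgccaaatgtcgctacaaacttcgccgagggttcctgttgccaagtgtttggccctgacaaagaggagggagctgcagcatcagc
The MCAT core stood once in Myh1, at positions -16 to -11 relative to the start and on the minus strand, and once in Myh4, at positions -231 to -226 on the plus strand. The study gives the full element as CATTCC followed by A or T. On the strand of the match the next base was A in Myh1 but C in Myh4, so only Myh1 held the full element among these promoters. Neither Myh2 nor Myh8 held these letters in this window. Among the other members the core was present in Myh6 and in 1 of 2 RefSeq promoters of Myh7, and was not found in these windows of Myh3 or Myh7b. Of 32851 mouse promoters of the same length, 14.7% held it. The MEF2 consensus, which 3.19% of those promoters held, was found in Myh1, Myh4 and Myh8, and the E-box CANNTG, the sequence bound by Myod1 and Myog, in every member except Myh1 and Myh2 against 72.3% of all promoters. All motifs were searched on both strands. No match of these motifs overlapped another in the 4 promoters shown. The letters describe these windows and were not tested as sites.

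The slow and cardiac genes are the hosts of a microRNA family, whose mature sequences are shown because the hosts fell together in C2C12 cells. Capitals mark the seed, bases 2 to 8.
miR-208a-3p, in Myh6: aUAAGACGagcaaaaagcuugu
miR-208b-3p, in Myh7: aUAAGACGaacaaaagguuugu
miR-499-5p, in Myh7b: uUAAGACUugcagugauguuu
miR-208a and miR-208b share their seed, and the hairpins lie in introns of their hosts. Libraries of polyadenylated fragments do not measure them, and their own rows held at most 2 counts in any library.

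Depth was 25453830 to 52784510 counts per library, with a median of 39204772. Summed Tead1 and Tead4 CPM in siTead1/4 libraries was 7.86% to 29.7% of siControl at day 0, 36.9% to 40.7% at day 3 and 49.2% to 59.8% at day 6 in C2C12 cells, and 27.3% to 37.1%, 23.6% to 27.2% and 32.9% to 46.1% in PMs. In C2C12 cells at day 6 Tead1 overlapped between groups, at 70.6 and 76.99 CPM under siTead1/4 against 75.99 and 136.3 under siControl. Tead4 was lower there without overlap, at 39.7 and 57.2 CPM against 86.5 and 149.7. At day 0 the siTead1/4 replicates of C2C12 cells stood far apart in Tead1, at 28.9 and 4.499 CPM, against 70.5 and 113 under siControl. Replicates differed beyond sampling noise in all 12 groups, by a chi-square per gene of 16.9 to 69.1 in siControl groups and PMs and of 115 to 293 in the siTead1/4 groups of C2C12 cells. Myoblast markers, among them Des and Myod1, were read in every library, at a summed 793 to 6975 CPM in C2C12 cells and 3347 to 9319 CPM in PMs. Fibroblast markers reached 839 to 3658 CPM in C2C12 libraries and 534 to 3788 CPM in PMs, endothelial markers 0.2 to 1.4 CPM and 2.8 to 16.1 CPM, and macrophage markers 0.8 to 2.3 CPM and 2.4 to 6.2 CPM, and their part in the results was not tested. In bulk RNA, fewer cells of a type and less RNA per cell cannot be told apart.

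Levels are given as CPM per kb, counts scaled to library size with TMM factors (CPM) and divided by the gene length of the deposited table in kilobases. In siControl PMs the embryonic Myh3 was the most abundant isoform at every day. Its 2 replicates stood at 669 and 617 CPM per kb at day 0, reached 1793 and 1816 at day 3, then stood at 1204 and 1624 at day 6. Myh1 came next, with 130.3 and 149 to begin with, 1175 and 1121 at day 3, then 685 and 794 by day 6. The perinatal Myh8 was at 76.9 and 62.7, then 875 and 929, then 625 and 829, and overlapped Myh1 at day 6 only. Myh4 went from 1.78 and 2.17 at day 0 to 427 and 328 at day 3, then to 526 and 342 at day 6. The remaining 4 isoforms were all lower than these from day 3. Myh2 reached 21.5 and 21.7 at day 6, Myh7 14.8 and 24.0, and Myh7b 2.55 and 5.20. Myh6 had at most 17 counts in any PM library, close to the floor of 3 counts, and its fold changes in PMs carry little information.

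In siControl C2C12 cells all 8 genes were low at day 0. Myh3 had 2.40 and 1.17 CPM per kb there, and 845 and 1312 at day 3, then 704 and 1158 at day 6. Myh1 went from 0.567 and 0.305 to 96.8 and 148 and then 222 and 420.1. Myh7 was at 52.2 and 80.4 at day 3, a level that overlapped that of Myh8, at 36.5 and 84.7. The slow isoform and the perinatal isoform were thus not separated in C2C12 cells, whereas in PMs at day 3 Myh8 exceeded Myh7, at 5.24 and 7.04, by more than the spread. Myh6 was read at 11.05 and 14.2 at day 3, Myh7b at 4.89 and 6.89, and Myh2 at 3.55 and 6.42. Myh4 differed most between replicates, with 9.19 and 36.4 at day 3.

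**Figure D1:**
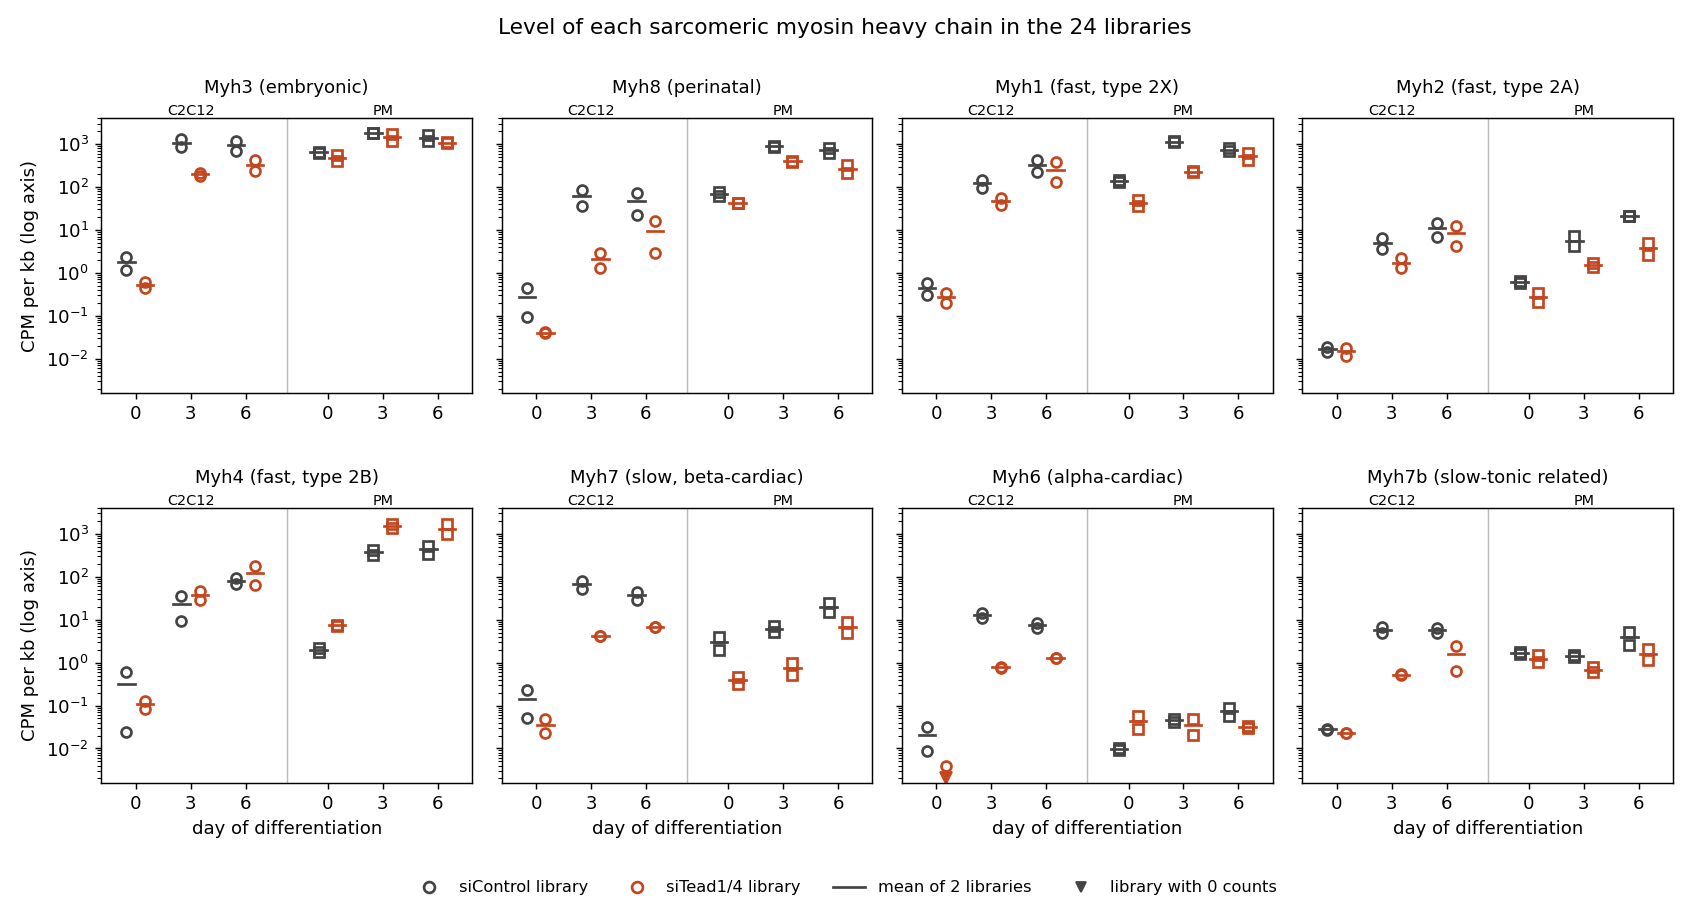
Level of each of the 8 genes in CPM per kb (log axis) against day, C2C12 cells as circles and PMs as squares, siControl in grey and siTead1/4 in orange-red, with 2 libraries a group and a bar at their mean, and a triangle for the library with 0 counts of Myh6. Myh4 of PMs is higher in every siTead1/4 library than in the siControl libraries of the same day, while Myh1 and Myh2 are lower.

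Differentiation raised the heavy chains in both cell types, and C2C12 cells started from a lower level. Calls required that edgeR's quasi-likelihood test gave an adjusted p below 0.05 and that the log2 fold change exceeded 1 in size. In siControl C2C12 cells, all 8 members rose from day 0 to day 3, where 28.7% of 15303 tested genes were called (16.0% higher, 12.7% lower). Their log2 fold changes lay between 6.20 ± 1.19 (SE) for Myh4 (edgeR adjusted p = 0.0025) and 9.36 ± 0.45 for Myh6 (edgeR adjusted p = 1.6e-06), with a median of 8.15 against -0.01 for all genes. At day 0 Myh6 had 7 and 3 counts in these libraries, so its fold change rests on a level near the floor. In siControl PMs, 6 of 8 rose, against 32.3% of 16144 genes called (17.5% higher, 14.9% lower), with a median over the members of 2.54 against 0.01. Myh4 rose most, by 7.53 ± 0.36 (edgeR adjusted p = 1.8e-07), followed by Myh8 with 3.64 ± 0.22, Myh2 with 3.15 ± 0.34, Myh1 with 2.98 ± 0.21 and Myh3 with 1.43 ± 0.22. Myh6 was the sixth, from 3 and 2 counts to 9 and 12, and no fold is given for counts so near the floor. Myh7 at 1.01 ± 0.41 (edgeR adjusted p = 0.054) was not called, and was called at 1.60 (adjusted p = 0.020) without siControl replicate 2 of day 0. Myh7b read 1.59 and 1.75 CPM per kb at day 0 and 1.37 and 1.54 at day 3, and was not called.

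Between day 3 and day 6 the type IIA, slow and Myh7b isoforms rose in siControl PMs. Myh2 rose by 1.93 ± 0.31 (edgeR adjusted p = 0.0086), Myh7 by 1.65 ± 0.41 (edgeR adjusted p = 0.042) and Myh7b by 1.40 ± 0.36 (edgeR adjusted p = 0.047), where 2.8% of genes were called (2.22% higher, 0.582% lower). Myh1 read 685 and 794 CPM per kb at day 6 against 1175 and 1121 at day 3, and the difference was not called (-0.65 ± 0.20, edgeR adjusted p = 0.086). Leaving out siControl replicate 1 of day 3 ended the calls of Myh2 (1.60, adjusted p = 0.064), Myh7 (1.45, adjusted p = 0.22) and Myh7b (1.32, adjusted p = 0.22). The calls of Myh7 and Myh7b also ended without replicate 2 of day 3 (1.87 and 1.48, adjusted p = 0.11 and 0.15) and without replicate 2 of day 6 (1.25 and 0.79, adjusted p = 0.18 and 0.26). In C2C12 cells edgeR called no member and 0% of all genes from day 3 to day 6 under either siRNA. At an unadjusted p under 0.05 stood 406 genes, 2 of them members, under siControl and 1183 genes, 5 of them members, under siTead1/4, and DESeq2 called 19 and 94 genes. Levels of Myh1 in siControl C2C12 cells were 96.8 and 148 at day 3 and 222 and 420.1 at day 6, without overlap, and the log2 fold change of 1.39 ± 0.53 was not called.

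Comparison of the cell types under siControl showed which isoforms each favoured. At day 0, 7 of 8 members were higher in PMs, where 26.8% of 16926 genes were called (16.3% higher, 10.5% lower), led by Myh3 with 8.50 ± 0.50 (edgeR adjusted p = 1.0e-09), Myh1 with 8.34 ± 0.59 and Myh8 with 8.08 ± 0.95. General myotube genes, a list of 15 with Acta1 and Ckm, summed to 5786 to 6417 CPM in these PM libraries and to 63.0 to 115 in C2C12 cells, and their part in the difference was not tested. At day 3 Myh4 (4.05 ± 0.83), Myh8 (3.90 ± 0.77) and Myh1 (3.23 ± 0.46) were higher in PMs, and Myh6 (-8.11 ± 0.40), Myh7 (-3.43 ± 0.49) and Myh7b (-2.02 ± 0.47) were higher in C2C12 cells, with edgeR adjusted p of at most 0.0020 for each of the 6 and 29.8% of genes called (17.2% higher in PMs, 12.6% lower). Of the 3 fast isoforms 2 were thus higher in PMs, together with the perinatal one, and the slow and cardiac ones were higher in C2C12 cells at that day. Myh3 (0.74 ± 0.36, edgeR adjusted p = 0.10) and Myh2 (0.17 ± 0.46, edgeR adjusted p = 0.79) were not called. At day 6 Myh8 (3.94 ± 0.77), Myh4 (2.41 ± 0.77, edgeR adjusted p = 0.021) and Myh1 (1.20 ± 0.43, edgeR adjusted p = 0.035) were still higher in PMs and Myh6 lower (-6.63 ± 0.38), where 24.9% of genes were called (15.7% higher, 9.22% lower). Of these, Myh1 lost its call without C2C12 siControl replicate 1 (0.79, adjusted p = 0.28) or either PM replicate (1.29 and 1.07, adjusted p = 0.077 and 0.14), and Myh4 without PM siControl replicate 1 (2.05, adjusted p = 0.098) or either C2C12 replicate (2.15 and 2.68, adjusted p = 0.13 and 0.068), while Myh2 gained a call without C2C12 siControl replicate 2 (1.62, adjusted p = 0.044). At day 0 the call of Myh4 (2.73) ended without C2C12 siControl replicate 2 (1.67, adjusted p = 0.10) or PM siControl replicate 2 (2.55, adjusted p = 0.063). Cardiomyocyte markers other than these genes summed to 12.4 to 32.5 CPM in C2C12 libraries and 0.4 to 1.6 CPM in PMs, with 4 or 5 of 7 of them at no more than 3 counts in every C2C12 group, and their part in the Myh6 level was not tested.

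Silencing of Tead1 and Tead4 in PMs raised Myh4 and lowered other fast, perinatal and slow isoforms. Myh4, the fastest isoform, read 7.33 and 7.57 CPM per kb in siTead1/4 PMs at day 0 against 1.78 and 2.17 in siControl. At day 3 it read 1715 and 1363 against 427 and 328, and at day 6 1695 and 972 against 526 and 342. Both siTead1/4 libraries lay above both siControl libraries at each day. The log2 fold changes were 1.91 ± 0.29 (edgeR adjusted p = 0.0048), 2.02 ± 0.28 (edgeR adjusted p = 0.0026) and 1.62 ± 0.28 (edgeR adjusted p = 0.024), so that Myh4 was the 1 member that rose at all 3 days. In these comparisons 2.6%, 3.3% and 0.743% of the 16144 tested genes were called, with 1.5%, 2.1% and 0.465% of the tested genes higher and 1.1%, 1.2% and 0.279% lower.

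Myh1, its neighbour in the cluster, went the other way. It read 36.1 and 50.03 CPM per kb in siTead1/4 PMs at day 0 against 130.3 and 149, and 228 and 231 at day 3 against 1175 and 1121. It fell by 1.71 ± 0.20 at day 0 (edgeR adjusted p = 0.0016) and fell by 2.33 ± 0.21 at day 3 (edgeR adjusted p = 0.00053). At day 6 it read 425 and 625 against 685 and 794, and the difference was not called (-0.49 ± 0.20, edgeR adjusted p = 0.35). Within siTead1/4 PMs Myh1 rose from day 3 to day 6 by 1.19 ± 0.20 (edgeR adjusted p = 0.0091). The difference of the siTead1/4 effect between day 6 and day 3 was 1.84 ± 0.28 for Myh1 and was not called (edgeR adjusted p = 0.18), with 0% of genes called by edgeR in that test, 733 at an unadjusted p under 0.05 and 25 called by DESeq2, Myh1 among them (adjusted p = 8.4e-07).

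Myh2, the third fast gene and the one closest to Myh1, read 1.38 and 1.66 CPM per kb at day 3 against 4.16 and 7.05, and 2.62 and 4.92 at day 6 against 21.5 and 21.7. It fell by 1.89 ± 0.32 at day 3 (edgeR adjusted p = 0.0068) and fell by 2.52 ± 0.32 at day 6 (edgeR adjusted p = 0.0062), and at day 0 it read 0.205 and 0.341 against 0.571 and 0.644 without being called (-1.14 ± 0.38, edgeR adjusted p = 0.095). Among the fast isoforms Myh2 was always the least abundant. The perinatal Myh8 read 415 and 387 at day 3 against 875 and 929, and 209 and 319 at day 6 against 625 and 829. It fell by 1.18 ± 0.20 (edgeR adjusted p = 0.0076) and fell by 1.46 ± 0.21 (edgeR adjusted p = 0.010). The embryonic Myh3 read 1724 and 1204 at day 3 against 1793 and 1816, and was not called at any day, with log2 fold changes of -0.43 ± 0.22, -0.31 ± 0.22 and -0.38 ± 0.22. Both siTead1/4 libraries nevertheless lay below both siControl libraries at each day. Myh3 read 563 and 394 against 669 and 617 at day 0, and 1060 and 1106 against 1204 and 1624 at day 6.

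The slow isoform Myh7 read 0.325 and 0.471 CPM per kb in siTead1/4 PMs at day 0 against 1.95 and 3.95, 0.522 and 1.005 at day 3 against 5.24 and 7.04, and 5.02 and 8.75 at day 6 against 14.8 and 24.0. It fell by 2.88 ± 0.46 at day 0 (edgeR adjusted p = 0.0061) and fell by 3.03 ± 0.45 at day 3 (edgeR adjusted p = 0.0036), and was not called at day 6 (-1.49 ± 0.41, edgeR adjusted p = 0.13). From day 3 to day 6 it rose in siTead1/4 PMs by 3.18 ± 0.45 (edgeR adjusted p = 0.0044), as Myh2 did by 1.31 ± 0.32 (edgeR adjusted p = 0.038), where 2.97% of genes were called (1.84% higher, 1.13% lower). Myh7b was lower in siTead1/4 PMs at day 3, at 0.786 and 0.597 against 1.37 and 1.54, but was not called (-1.08 ± 0.37, edgeR adjusted p = 0.11). Over the 8 members the median log2 fold change was -0.59, -1.13 and -1.24 at days 0, 3 and 6 of PMs, against -0.01, 0.01 and 0.00 over all tested genes.

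Some of these calls depended on the fit or on single libraries. With all 24 libraries in 1 fit Myh4 kept its direction but was not called at day 0, day 3 or day 6 (1.92, 2.03 and 1.62, adjusted p = 0.27, 0.21 and 0.73), nor was Myh1 at day 0 (adjusted p = 0.055) or Myh8 at day 3 and day 6 (adjusted p = 0.52 and 0.76). With only the 4 libraries compared, no member was called at day 6 (Myh2, Myh8 and Myh4 at adjusted p = 0.083, 0.18 and 0.22). Myh4 lost its call at day 0 without siControl replicate 1 (1.78, adjusted p = 0.063), and at day 6 without siTead1/4 replicate 1 (1.17, adjusted p = 0.13) or siControl replicate 2 (1.34, adjusted p = 0.11), while at day 3 it stayed called without any 1 library. Myh1 stayed called at day 0 and day 3 without any 1 library. At day 3 Myh2 lost its call without siTead1/4 replicate 1 (-1.77, adjusted p = 0.059) and Myh8 without siTead1/4 replicate 2 (-1.13, adjusted p = 0.063), and at day 6 Myh8 without siTead1/4 replicate 1 (-1.18, adjusted p = 0.056). Myh7 lost its call at day 0 without siTead1/4 replicate 1 (-2.65, adjusted p = 0.066). With siTead1/4 replicate 1 of day 3 left out, the rises within siTead1/4 PMs to day 6 lost their calls too (Myh1 1.19, adjusted p = 0.078, Myh2 1.18, adjusted p = 0.23, and Myh7 2.78, adjusted p = 0.056). The rise of Myh1 also lost its call without siTead1/4 replicate 2 of day 6 (0.88, adjusted p = 0.054), and that of Myh2 without replicate 2 of day 3 (1.45, adjusted p = 0.093) or of day 6 (0.78, adjusted p = 0.25), while Myh7b gained one without replicate 1 of day 6 (1.60, adjusted p = 0.043).

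**Figure D2:**
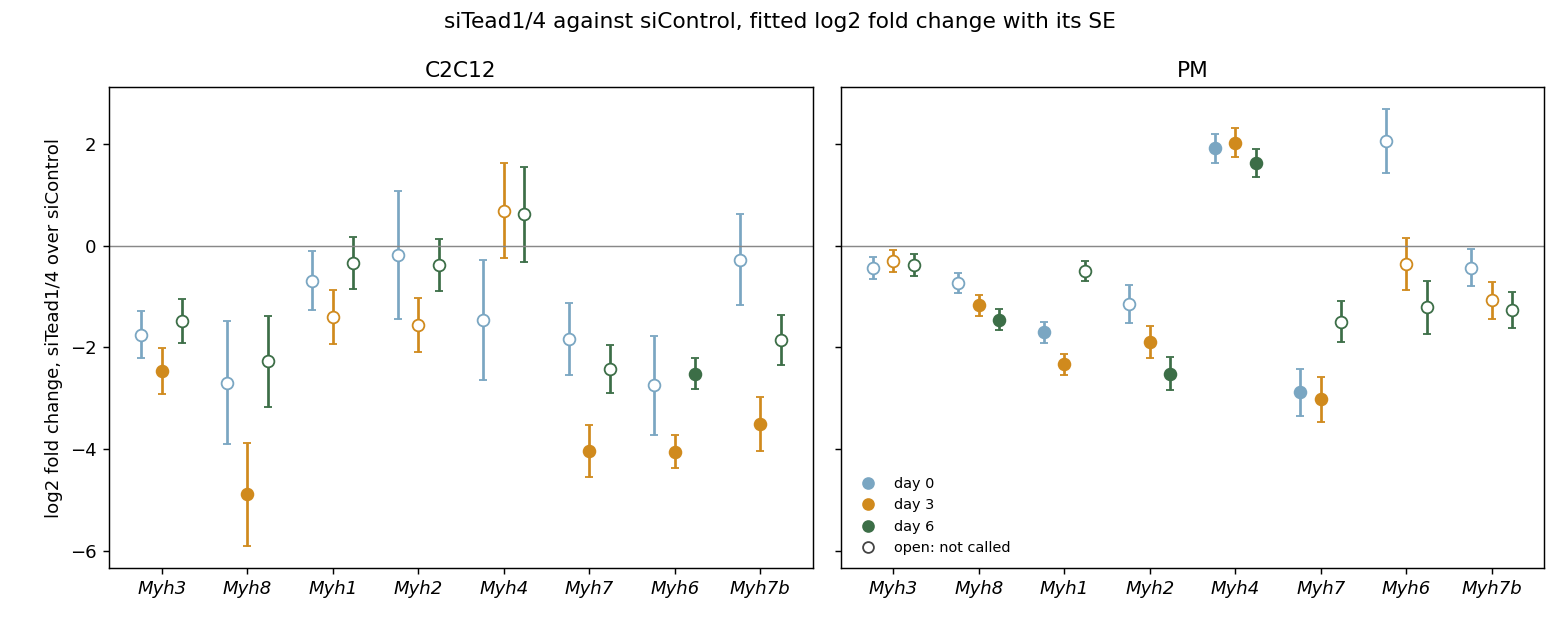
Fitted log2 fold change of siTead1/4 over siControl with its SE for each member, C2C12 cells on the left and PMs on the right, by day, with filled points for called changes. In PMs Myh4 lies near 2 at day 0 and day 3 and at 1.62 at day 6, and is the 1 called member above 0, and in C2C12 cells the slow and cardiac genes lie lowest at day 3 together with Myh8.

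In C2C12 cells siTead1/4 lowered 5 of the 8 members at day 3, and these were the developmental, slow and cardiac isoforms. Of 15303 tested genes 1.27% were called (0.19% higher, 1.08% lower), or 29 higher and 166 lower, a balance that turned to 299 higher and 130 lower without siTead1/4 replicate 1, while 2 genes were called without siControl replicate 2. Myh6 read 0.759 and 0.795 CPM per kb in siTead1/4 cells against 11.05 and 14.2, Myh7 4.10 and 4.12 against 52.2 and 80.4, and Myh7b 0.532 and 0.525 against 4.89 and 6.89. Groups were far apart for all 3, and the siTead1/4 replicates nearly equal. Myh6 fell by 4.05 ± 0.33 (edgeR adjusted p = 0.0019), Myh7 fell by 4.04 ± 0.51 (edgeR adjusted p = 0.013) and Myh7b fell by 3.51 ± 0.52 (edgeR adjusted p = 0.017). Myh8 read 1.28 and 2.91 against 36.5 and 84.7 and fell by 4.89 ± 1.01 (edgeR adjusted p = 0.0495). Myh3 read 214 and 183 against 845 and 1312 and fell by 2.47 ± 0.45 (edgeR adjusted p = 0.034). The median over the 8 members was -2.99, against 0.01 over all genes.

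The fast isoforms of C2C12 cells were not called at day 3, although without the filter on low counts Myh1 and Myh2 were (adjusted p = 1.7e-05 and 4.2e-06). Myh1 read 38.0 and 56.5 CPM per kb against 96.8 and 148 (-1.40 ± 0.53, edgeR adjusted p = 0.25), and Myh2 1.30 and 2.16 against 3.55 and 6.42 (-1.56 ± 0.53, edgeR adjusted p = 0.20). Myh4 read 28.8 and 46.4 against 9.19 and 36.4, with overlapping groups (0.69 ± 0.93, edgeR adjusted p = 0.83). At day 6 only Myh6 was called, at 1.28 and 1.28 against 6.47 and 8.23, and it fell by 2.52 ± 0.30 (edgeR adjusted p = 0.039), where 0.0457% of genes were called (0.0131% higher, 0.0327% lower). Myh7 read 6.74 and 6.95 against 29.5 and 44.6 there without being called (-2.43 ± 0.47, edgeR adjusted p = 0.14). Also lower without overlap, and uncalled, were Myh3, Myh7b and Myh8. Myh3 read 236 and 428 against 704 and 1158 (-1.48 ± 0.44, edgeR adjusted p = 0.40). Myh7b read 0.625 and 2.49 against 5.03 and 6.37 (-1.86 ± 0.48, edgeR adjusted p = 0.30). For Myh8 the levels stood at 2.90 and 16.5 against 22.4 and 72.2 (-2.28 ± 0.90, edgeR adjusted p = 0.63). Of the 8 members 5 had an unadjusted p under 0.05, against 1064 of 15303 genes, and DESeq2 called 4. The siTead1/4 replicates of day 6 stood far apart in the fast genes, with Myh1 at 129.5 and 373, Myh2 at 4.13 and 12.5 and Myh4 at 65.4 and 183. At day 0, where 0.438% of genes were called (0.137% higher, 0.301% lower), no member was called by edgeR and DESeq2 called 1. An unadjusted p under 0.05 was found for 3 members and for 1603 of all 15303 tested genes. The closest to an edgeR call was Myh3 at 0.619 and 0.434 against 2.40 and 1.17 (-1.75 ± 0.46, edgeR adjusted p = 0.16).

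The C2C12 calls of day 3 depended on single libraries except that of Myh6, and with only the 4 libraries compared Myh3 and Myh8 were not called (adjusted p = 0.072 and 0.064). Without siControl replicate 2 the adjusted p was 0.215 for Myh3, 0.245 for Myh8, 0.090 for Myh7 and 0.11 for Myh7b, with fold changes of -2.11, -4.15, -3.69 and -3.23. Without siTead1/4 replicate 2 the adjusted p values were 0.14, 0.14, 0.063 and 0.092, without siControl replicate 1 Myh3 (0.094), Myh8 (0.13) and Myh7b (0.057) were lost, and without siTead1/4 replicate 1 Myh3 (0.059) and Myh8 (0.13). The day 6 call of Myh6 ended without any 1 of the 4 libraries, at adjusted p values of 0.092 to 0.28 and log2 fold changes of -2.34 to -2.68, and with only these 4 libraries (adjusted p = 0.11), while Myh7b was called at that day without siTead1/4 replicate 2 (-3.19, adjusted p = 0.025). In siTead1/4 C2C12 cells all 8 members still rose from day 0 to day 3, where 24.6% of genes were called (13.8% higher, 10.8% lower), Myh3 by 8.49 ± 0.60 and Myh7 by 6.70 ± 0.66, and in siTead1/4 PMs 5 of 8 rose, where 28.3% were called (15.9% higher, 12.4% lower), led by Myh4 with 7.64 ± 0.36.

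Whether siTead1/4 acted differently in PMs and C2C12 cells was tested as an interaction. At day 3 the difference was called for Myh6 (3.67 ± 0.58, edgeR adjusted p = 0.0056), where 1.25% of genes were called (1.02% higher, 0.236% lower), and Myh6 of PMs had 9 and 12 counts in siControl and 14 and 5 in siTead1/4 libraries. For Myh3 (2.14 ± 0.51, edgeR adjusted p = 0.051), Myh8 (3.68 ± 1.003, edgeR adjusted p = 0.088) and Myh7b (2.41 ± 0.66, edgeR adjusted p = 0.090) the difference was not called. For Myh4 it was 1.31 ± 1.04 (edgeR adjusted p = 0.68), and for Myh7 0.998 ± 0.654 (edgeR adjusted p = 0.59), which shows neither a difference nor its absence. No member was called in this test at day 0 or day 6, with 3 members at an unadjusted p under 0.05 at each, where 0.00591% and 0.0354% of genes were called by edgeR, 725 and 916 had an unadjusted p under 0.05, and DESeq2 called 32 and 60. Without PM siTead1/4 replicate 1 the day 3 difference for Myh6 was 2.89 (adjusted p = 0.19), and without C2C12 siTead1/4 replicate 1 that for Myh3 was called (2.25, adjusted p = 0.046). In the latter fit 287 genes were called higher and 355 lower, against 172 and 40 with all libraries.

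The makeup of the heavy chain pool was described by isoform shares, the percentage of a gene in the summed CPM per kb of the 8 members. Myh3 held the highest share in 22 of 24 libraries, and Myh4 in the other 2, which were the siTead1/4 PM libraries of day 3 replicate 2 and day 6 replicate 1. In PMs at day 3 the share of Myh4 was 9.98% and 7.79% under siControl and 42.0% and 42.8% under siTead1/4. The share of Myh1 was 27.4% and 26.6% against 5.58% and 7.24%, and that of Myh8 20.4% and 22.1% against 10.2% and 12.1%. Myh3 kept 41.9% and 43.1% against 42.2% and 37.8% and overlapped between the groups. At day 6 Myh4 had 17.1% and 9.40% under siControl and 49.9% and 32.0% under siTead1/4, and Myh1 22.2% and 21.8% against 12.5% and 20.6%.

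In C2C12 cells Myh3 held 79.8% and 77.7% of the pool at day 3 of siControl and 74.1% and 61.7% under siTead1/4. The share of Myh4 was 0.868% and 2.15% against 9.95% and 15.7%, and at day 6 6.32% and 5.27% against 14.7% and 17.9%. The share of Myh4 was therefore higher under siTead1/4 in both cell types at day 3 and day 6, without overlap between groups, although its level was called higher in PMs alone. Myh7 went from 4.93% and 4.76% to 1.42% and 1.39% at day 3. Shares of 1 library sum to 100%, so a fall of 1 isoform raises the others, and no test was made on them.

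**Figure D3:**
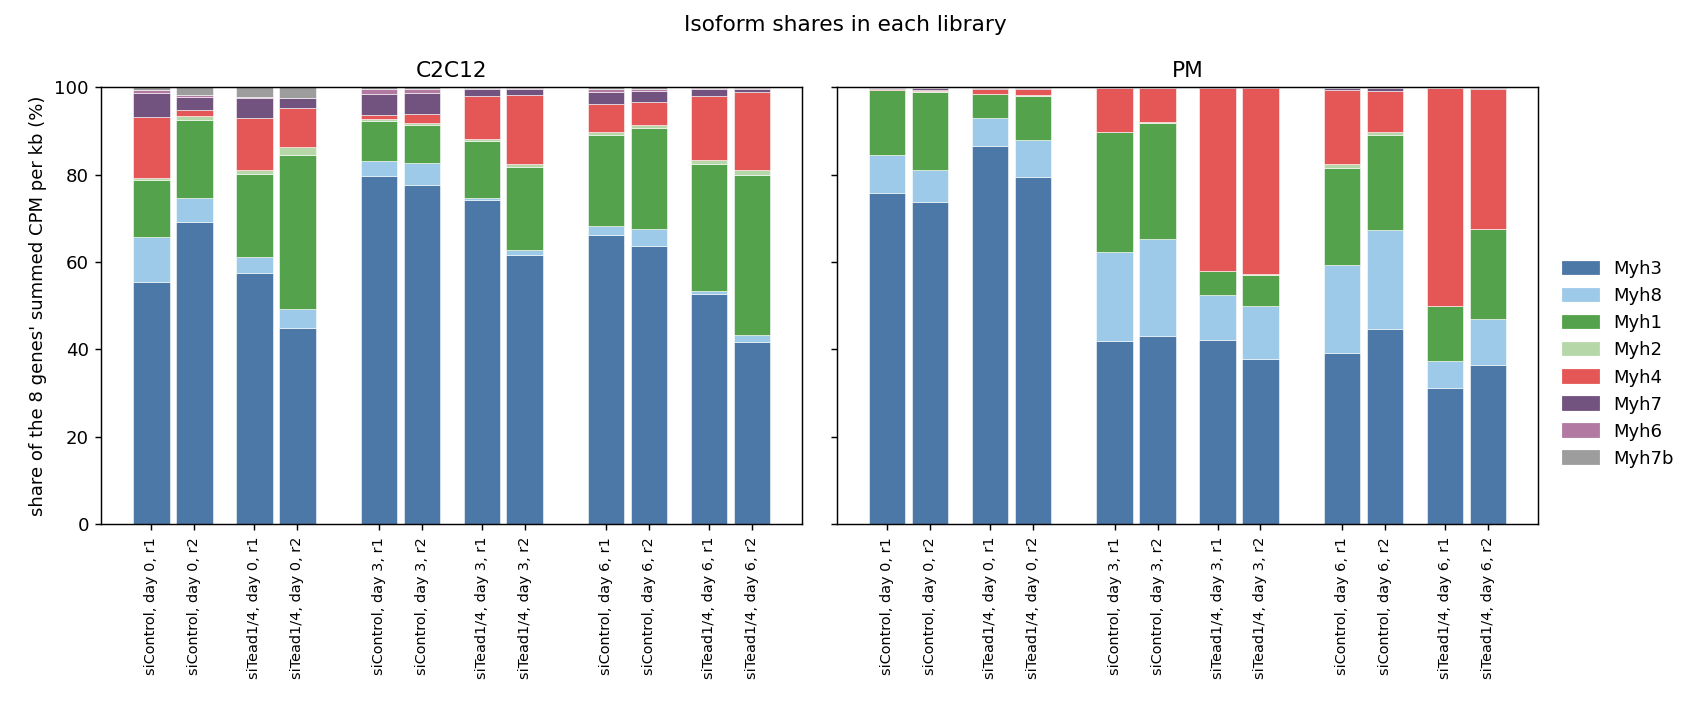
Share of each gene in the summed CPM per kb of the 8 members (%), 1 bar a library, C2C12 cells on the left and PMs on the right. The Myh4 segment takes 42.0% and 42.8% of the day 3 siTead1/4 bars of PMs against 9.98% and 7.79% under siControl, and Myh3 is the largest segment in 22 of 24 bars.

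The ratio of Myh4 to Myh1 put the neighbours side by side. In PMs at day 3 it was 0.364 and 0.293 under siControl and 7.53 and 5.91 under siTead1/4, at day 0 0.0137 and 0.0145 against 0.203 and 0.151, and at day 6 0.769 and 0.431 against 3.98 and 1.56. In C2C12 cells at day 3 it was 0.0949 and 0.246 against 0.757 and 0.821, and at day 6 0.303 and 0.228 against 0.505 and 0.491. The ratio was higher under siTead1/4 in all of these 5 settings without overlap, and above 1 in the differentiated siTead1/4 PMs alone. The PM ratios restate the changes of Myh4 and Myh1 given above, and no test was made on ratios. In C2C12 cells the reported edgeR fit called neither gene, and Myh4 levels overlapped between groups at day 3 and day 6. At day 0 of C2C12 cells the ratios of 1.07 and 0.0772 against 0.631 and 0.250 overlapped.

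Summed over the 8 members, heavy chain reads took 2.46% and 2.49% of all counts in siControl PMs at day 3 and 2.34% and 1.89% in siTead1/4 PMs. At day 6 they took 1.83% and 2.13% against 1.96% and 1.77%, with overlapping groups. In C2C12 cells the sum at day 3 was 0.656% and 1.04% against 0.180% and 0.179%, and at day 6 0.668% and 1.12% against 0.290% and 0.645%. The pool was thus lower in both siTead1/4 libraries than in either siControl library at both days of C2C12 cells and at day 3 of PMs. Day 0 showed the same in both cell types. The pool took 0.589% and 0.576% under siControl against 0.459% and 0.358% under siTead1/4 in PMs. In C2C12 cells of day 0 it took 0.00293% and 0.00113% against 0.00079% and 0.00065%. The nearest C2C12 libraries of day 6 stood at 0.645% and 0.668%.

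**Figure D4:**
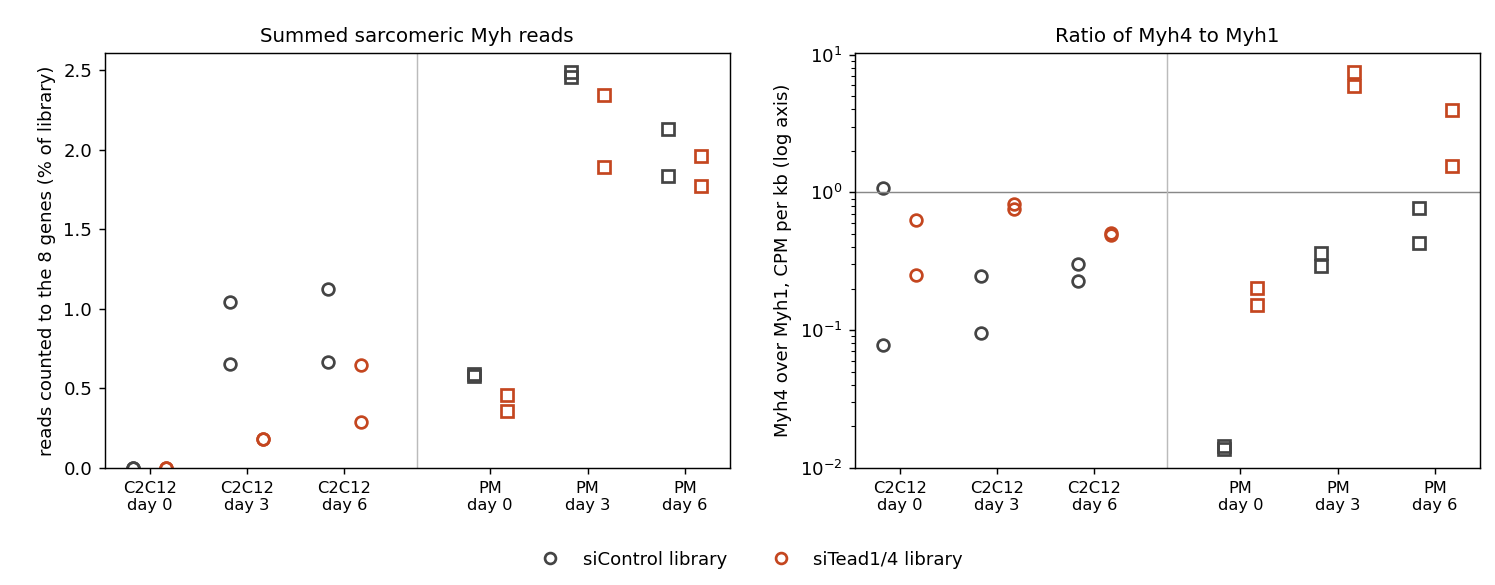
Left, reads counted to the 8 genes as a percentage of all counts of a library. Right, the ratio of Myh4 to Myh1 in CPM per kb (log axis, line at 1). Circles are C2C12 and squares PM libraries, grey for siControl and orange-red for siTead1/4. Differentiated siTead1/4 PMs lie between 1.56 and 7.53 in the ratio and every other differentiated library below 1.

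Light chains, thick filament partners and other myotube genes were counted beside the heavy chains. Of 6 tested genes of sarcomeric light chains and their kinase, edgeR called 1 at day 3 and at day 6 in either cell type, and it was Myl2, the regulatory light chain of slow and cardiac muscle that pairs with Myh7. At day 3 and day 6 edgeR called 1.27% and 0.0457% of all tested genes in C2C12 cells, and 3.3% and 0.743% in PMs. Myl2 read 9.23 and 8.29 CPM per kb in siControl C2C12 cells at day 3 and 0.0407 and 0.119 in siTead1/4 cells (3 and 10 counts), and fell by 6.75 ± 0.69 (edgeR adjusted p = 0.0093). In PMs it read 1.24 and 1.30 against 0.253 and 0.332 and fell by 2.12 ± 0.37 (edgeR adjusted p = 0.0081), and at day 6 10.9 and 13.9 against 2.99 and 4.83, a fall by 1.67 ± 0.31 (edgeR adjusted p = 0.035). The difference of the effect between cell types was called for Myl2 at day 3 (4.60 ± 0.79, edgeR adjusted p = 0.0099). The light chain list had a median of -0.45 in PMs and of -1.18 in C2C12 cells at day 3.

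Of 15 thick filament partners and myosin chaperones, among them titin and Unc45b, edgeR called none at day 3. Their medians were -1.13 in C2C12 cells and -0.21 in PMs. At an unadjusted p under 0.05 stood 11 of 15 tested in C2C12 cells and 5 of 14 in PMs. Over all genes these were 2180 of 15303 in C2C12 cells and 3668 of 16144 in PMs. DESeq2 called 6 of the 15 partners and chaperones in C2C12 cells at that day, among them Unc45b, Smyd1 and Mybph, and 0 in PMs. In PMs 2 fell at day 0, where both tools called them. These were Mybph, myosin binding protein H, at 46.5 and 47.7 CPM per kb against 139.9 and 147 (-1.61 ± 0.11, edgeR adjusted p = 0.00018), and Mybpc1, the slow form of myosin binding protein C (-1.16 ± 0.14, edgeR adjusted p = 0.0016). Of 15 general myotube genes, 1 was called at day 3 of C2C12 cells, Actn2, a Z-disc actinin, at 10.8 and 12.3 against 73.0 and 128 (-3.16 ± 0.54, edgeR adjusted p = 0.029), where the median was -1.35, 11 had an unadjusted p under 0.05 and DESeq2 called 7. In PMs neither tool called any at day 3 or day 6, with medians of -0.26 and -0.10. There 5 and 4 of the list had an unadjusted p under 0.05, against 3668 and 1914 of all 16144 tested genes. In C2C12 cells the list summed to 12292 to 13450 CPM at day 3 under siControl and to 5022 to 7292 CPM under siTead1/4, and in PMs to 38325 to 42835 CPM against 35125 to 36661 CPM. Markers of differentiated myotubes thus stood lower beside the heavy chains at day 3 in siTead1/4 libraries of both cell types, without overlap. At day 6 they summed to 13787 to 15237 CPM against 7273 to 13929 CPM under siTead1/4 in C2C12 cells, with overlap. In PMs of day 6 they summed to 37052 to 38880 CPM against 34163 to 36452 CPM. Their part in the result was not tested.

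Of 17 tested regulators of fibre type in PMs, such as Sox6 and Tbx15, 2 were called at day 3. In that comparison 3.3% of all 16144 tested genes were called. Vgll2, a cofactor of Tead proteins, read 41.5 and 40.3 CPM per kb against 15.7 and 22.0 and rose by 1.11 ± 0.19 (edgeR adjusted p = 0.0070). Esrrg, a nuclear receptor of oxidative muscle, read 2.16 and 1.79 against 6.21 and 5.03 and fell by 1.51 ± 0.30 (edgeR adjusted p = 0.015). The list's median was -0.09 in PMs. In C2C12 cells edgeR called 0 of 18 at day 3 and DESeq2 called 1, Mef2c. There 2 of the list had an unadjusted p under 0.05, against 2180 of all 15303 tested genes. Non-muscle and smooth muscle heavy chains (Myh9, Myh10, Myh11 and Myh14) were not called by either tool at day 3. Their medians were -0.65 in C2C12 cells and -0.05 in PMs. At an unadjusted p under 0.05 stood 0 of 3 in C2C12 cells and 1 of 4 in PMs, where 3668 of all 16144 genes did. The other sarcomeric genes of the family, Myh13 and Myh15, summed to at most 1.8 CPM in any library.

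Genes whose log2 CPM ran most nearly parallel to each member over the 24 libraries were found by the root mean square difference after centring, among 16926 genes, as a description. Nearest to Myh3 were Unc45b, the myosin chaperone, at 0.43, and Actc1, the cardiac actin of young muscle, at 0.66. Myh1 was nearest to Cav3 (0.60), Myh8 to Mybpc1 (0.81) and Actn2 (0.84), and Myh2 to Fbxo40 (0.78) and Cd36 (0.92). Myh4 had no gene as near, with Ckm at 1.48 and Tceal7 at 1.49. For Myh7 the nearest were Slc6a19 (1.15) and Myoz2 (1.22), for Myh6 Isx (0.99) and Kng2 (1.43), and for Myh7b Sohlh2 (0.86) and Erbb3 (0.96). No member was among the nearest 2 genes of another.

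Reads of close paralogs can be split or dropped by the counting, so the level of each member is uncertain to that extent. Of the windows of 50 bases along the longest transcript, 26.7% of Myh1, 26.9% of Myh2, 21.4% of Myh8 and 18.9% of Myh4 also occurred in another heavy chain, against 4.81% of Myh3 and 0% of Myh7b. Myh7 and Myh6 shared 22.2% and 22.8%, all with each other. The ratio of Myh7 to Myh6 was 4.56 to 5.65 in the 8 differentiated C2C12 libraries and 10.7 to 290.3 in those of PMs, and that of Myh1 to Myh2 was 23.0 to 31.9 and 31.9 to 282.4. Myh6 of PMs rests on at most 17 counts, and how far the members of a pair share reads was not tested. The table's length of Myh8, 7871 bases, exceeds its longest annotated transcript of 6149, which lowers its level per kb relative to the other members, and with transcript lengths Myh3 held the highest share in the same number of libraries.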

How the data were processed

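RNA-seq was made from 24 libraries of C2C12 cells and PMs with an unstranded kit for polyadenylated RNA. The authors mapped reads to mm9 and deposited 1 table of raw read counts per gene. The submitters' processing notes list CASAVA 1.8.2, TopHat2 2.0.10, Bowtie2 2.1.0, HTSeq 0.6.1 and DESeq2 1.8.1. The read length is not given in the sources used here. Count columns of 12 libraries not listed among the samples were not used, nor were the authors' normalised columns. Groups came from the labels.

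Tests used edgeR 4.0.16 in R 4.3.3 (filterByExpr with a minimum count of 10, TMM, quasi-likelihood F test, Benjamini-Hochberg adjustment over all tested genes). Comparisons within a cell type used its 12 libraries with 6 group means, and comparisons between cell types all 24. Called genes had an adjusted p below 0.05 and a log2 fold change beyond 1 in either direction. The fits were tested on simulated data. Levels are CPM per kb of the deposited gene length, and errors are SE of the fit. With 2 libraries a group, an exact permutation test of 1 gene could not reach the threshold and was not used. Depth, 25453830 to 52784510 counts, leaves genes with few counts imprecise.

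Members and lists were chosen with earlier results of these data known. All members were named in all comparisons, with the 2 genes most parallel to each (1 such gene is not reported here), and genes of lists as counts. Gene positions came from the deposited table, and strands, exons and transcripts from the GENCODE vM1 annotation of mm9. Promoter and miRNA sequences came from RefSeq (GRCm38.p6), where every member matched. Alternatives were RLE size factors, DESeq2 1.42.0 without shrinkage, no filter, a replicate block, other sets of libraries in the fit, and each library left out.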

Additional observations from a re-analysis of the deposited data

Results flagged for a closer look

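One result differed between groups by a test of the difference itself. The siTead1/4 effect on Myh6 at day 3 was higher in PMs than in C2C12 cells by 3.67 ± 0.58 on the log2 scale (edgeR interaction over 24 libraries, adjusted p = 0.0056). In C2C12 cells Myh6 read 11.05 and 14.2 CPM per kb under siControl and 0.759 and 0.795 under siTead1/4. In PMs the 2 siControl libraries of that day held 9 and 12 counts and the 2 siTead1/4 libraries 14 and 5 counts, close to the floor of 3 counts. Groups of 2 libraries were too small for a search for single outlying samples.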

How the results depend on the processing

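Limits. With 2 libraries a group, the spread is shared across groups and genes, and C2C12 siTead1/4 replicates were far apart. Myh3 held the highest share in 22 of 24 libraries also with raw counts or with transcript lengths, an alternative chosen after seeing the data. Of the single fold changes, 1074 alternative values kept direction and side of the threshold, 70 gained and 66 lost a call, and 8 reversed; no cause was tested.

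Members called moved as follows against the reported count. Without the low-count filter they were 4 for siTead1/4 in C2C12 cells at day 0 (reported 0), 5 at day 6 (1) and 5 in PMs at day 6 (3), 3 and 5 from day 3 to day 6 in siControl and siTead1/4 C2C12 cells (0 and 0), 2, 4 and 1 for the difference between cell types at days 0, 3 and 6 (0, 1 and 0), and 4 and 2 for that between days in C2C12 cells and PMs (0 and 0). With DESeq2 they were 1 and 4 in C2C12 cells at days 0 and 6, 2 from day 3 to day 6 of siTead1/4 C2C12 cells, 4 for the difference between cell types at day 3 and 1 for that between days in PMs. With all 24 libraries in 1 fit they were 1 and 2 in C2C12 cells at days 0 and 6, 1, 3 and 1 in PMs at days 0, 3 and 6 (reported 3, 5 and 3), 1 from day 3 to day 6 of siTead1/4 C2C12 cells, and 0 and 1 in siControl and siTead1/4 PMs (3 and 3). With only the libraries compared they were 3 and 0 in C2C12 cells at days 3 and 6 (5 and 1), 0 in PMs at day 6 and 2 for the difference between cell types at day 3, and with RLE factors 2 for the latter.

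Replicate numbers were shared between groups, but nothing states that they pair the libraries. Deviations of same-numbered libraries correlated over 0.1 in 6 of 15 group pairs of C2C12 cells (lowest -0.17) and in 14 of 15 of PMs (lowest 0.055). With a replicate block the members called were 2 and 1 for the difference between cell types at days 3 and 6 and 2 for that between days in PMs (Myh1 and Myh7, adjusted p = 0.040 for each), and within 1.5 times the reported count elsewhere. Among single members the block also called Myh2 for siTead1/4 in C2C12 cells at day 3 (adjusted p = 0.033). Over all genes the block called 792 for siTead1/4 in PMs at day 3 and 290 at day 6.

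With 1 library left out, members called ranged from 1 to 3 for siTead1/4 in C2C12 cells at day 3, 0 to 1 at day 6, and 1 to 3 in PMs at day 6. From day 3 to day 6 they ranged from 0 to 1 in siTead1/4 C2C12 cells, 0 to 3 in siControl PMs and 0 to 4 in siTead1/4 PMs. For PMs against C2C12 cells at day 6 they ranged from 2 to 4, and for the difference between cell types at day 3 from 0 to 2. Directions turned for uncalled values only. For siTead1/4 in C2C12 cells at day 6, Myh1 ranged from -1.31 to 0.23 (0.18 without siControl replicate 2), Myh2 from -1.40 to 0.26 (0.22 without siTead1/4 replicate 1) and Myh4 from -0.32 to 1.18. At day 0 Myh4 ranged from -2.48 to 2.18 there, turning without siControl replicate 1, and its difference between cell types from -0.26 to 4.40. Myh6 of PMs at day 3 ranged from -1.15 to 0.10.

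Genes called over the whole table ranged, over the settings that keep every compared library, from 7 to 1055 for siTead1/4 in C2C12 cells at day 3 (195 reported), 0 to 480 at day 0 (67) and 0 to 387 at day 6 (7), and in PMs from 204 to 586 at day 0 (420), 312 to 804 at day 3 (532) and 0 to 335 at day 6 (120). Among these settings the lowest counts of siTead1/4 in C2C12 cells came with only the libraries compared and the highest without the filter. From day 3 to day 6 they ranged from 0 to 102 and 0 to 630 in siControl and siTead1/4 C2C12 cells (0 and 0) and from 148 to 732 and 213 to 848 in PMs (452 and 479), for the difference between cell types from 1 to 88, 122 to 853 and 1 to 146 at days 0, 3 and 6 (1, 212 and 6), and for that between days from 0 to 158 in C2C12 cells and 0 to 46 in PMs (0 and 0). With 1 library left out, the ranges for siTead1/4 were 0 to 113, 2 to 429 and 0 to 2 in C2C12 cells and 155 to 207, 240 to 452 and 35 to 78 in PMs at days 0, 3 and 6. From day 3 to day 6 they were 0 to 1 and 0 to 220 in C2C12 cells and 143 to 328 and 98 to 484 in PMs, for the difference between cell types 0 to 77, 47 to 642 and 1 to 21, and for that between days 0 to 43 in C2C12 cells and 0 in PMs. The 2 and the 429 came without siControl replicate 2 and without siTead1/4 replicate 1 of C2C12 day 3, the 47 without PM siControl replicate 1 and the 642 without C2C12 siTead1/4 replicate 1 of that day.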
